A study of Rattus norvegicus with 24 samples.

Results

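Heat shock transcription factor 1 and 8 heat shock proteins were followed in the left ventricle of Dahl salt-sensitive rats that were fed high salt, exercised on a treadmill or left untreated. The 9 genes were Hsf1, Hsph1, Hspa8, Hspb1, Cryab, Hspa5, Hsp90b1, Hspd1 and Hspe1. They were taken by name, as every probe set that the platform annotation gives to one of these symbols. That gave 24 of the 8799 probe sets on the array. Of these, 21 carry 1 gene symbol and cover 8 of the 9 genes, beside 4736 genes with such a probe set on the whole array. The remaining 3 carry several symbols. Both probe sets annotated to Hspa8 are also annotated to Haus8l2, and rc_AA799438_at is annotated to both Asb2 and Hspb1, so their values are given by probe set and credited to no gene. All 24 passed the filter on dim probe sets.

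The Dahl salt-sensitive rat is an inbred strain that becomes hypertensive when fed salt, and every animal of the study, controls included, was of this strain. The study set exercise, as a model of physiological hypertrophy, beside high salt, as a model of pathological hypertrophy. High salt rats ate chow with 6% NaCl from 6 weeks of age and exercised rats ran daily for 6 weeks from that age, the last part of it at 16 m/min on a slope of 5 degrees for 90 minutes a day. Controls were sedentary, of matched age and on normal chow. Array titles give the group and 3, 6 or 15 weeks, without a stated starting point for the weeks. After removal of 2 arrays deposited under both the exercise and the control label of 3 weeks, there were 3 high salt, 1 exercise and 1 control array at 3 weeks. High salt, exercise and control had 3 arrays each at 6 weeks, and high salt and control 3 each at 15 weeks. The 2 arrays with both labels are non-salt under either, so at 3 weeks high salt could be set against 4 distinct non-salt arrays. Whether every array was hybridised with RNA of its own animal is not stated, so a p-value here reflects array-to-array spread, which may be technical.

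Heat shock proteins are chaperones: they bind proteins that are newly made or have lost their fold, keep them from clumping, and help them refold or pass them on for degradation. Hsf1 is the transcription factor that switches on the chaperones of the cytosol and mitochondria when unfolded protein accumulates, while the chaperones of the endoplasmic reticulum are switched on by a separate pathway, the unfolded protein response. Heart muscle is rich in the small heat shock proteins, which are bound to the contractile apparatus and desmin filaments.

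The control arrays of 6 weeks, numbers 2 and 3 above all, stood apart from the rest in a measure of RNA integrity. It is the ratio of the 3' to the 5' probe set of a control transcript, which goes up as RNA breaks or copying stops short. For GAPDH the ratios were 1.58, 2.48 and 3.99 in the 6-week controls, and 1.09, 1.52 and 1.58 in the 15-week controls. The 16 other distinct arrays lay between 0.989 and 1.18. For beta-actin the 6-week controls had ratios of 1.98, 3.29 and 2.73, against 1.02 to 1.68 in the 19 other distinct arrays. For hexokinase they had 3.00, 8.35 and 11.06, against 1.48 to 3.16 in the same 19. Control number 1 of 6 weeks was thus within the range of the others for hexokinase, and level with a 15-week control for GAPDH. Calls made against the 6-week controls, in the members and in the gene lists, are therefore given below also with the GAPDH ratio as a covariate and also against the control arrays of 3 and 15 weeks. The difference of the high salt effect between weeks is given with the covariate only. The other controls are the 1 control array of 3 weeks with a single label and the 3 of 15 weeks, taken as 1 group. That setting mixes week with treatment, and its arrays include the GAPDH ratios of 1.52 and 1.58. Of 12 ventricular myocyte markers 10 were measured, with a summed intensity between 190503 and 321646 on the arrays of 1 label, so the labelled tissue and its markers were not at odds.

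Promoter motifs of the 2 stress pathways were found in different members. RefSeq promoters on the rat build GRCr8 were at hand for 7 of the 9 genes, all but Hsf1 and Cryab, and the 250 bases before the start site were read in each. The core of the heat shock element, to which Hsf1 binds, was searched as GAANNTTC and TTCNNGAA, each of which reads the same on both strands and may overlap the other. The endoplasmic reticulum stress element, to which factors of the unfolded protein response bind, was searched as CCAAT and CCACG with 9 bases between them, on either strand. A heat shock pattern was present in 5 members: 4 matches before Hspa8, 3 each before Hsph1, Hspd1 and Hspe1, and 2 before Hspb1. Of all 33469 RefSeq promoters of the same length, 13.5% held either pattern. The stress element was present in the other 2 members, once before Hspa5 and 2 times before Hsp90b1, and in 0.0657% of all promoters (22 in number). The promoters of Hyou1, Pdia4 and Serpinh1, genes of endoplasmic reticulum folding named below, were read too. Hyou1 and Pdia4 had 0 matches of either kind, and Serpinh1 had 2 heat shock matches and 0 of the stress element. These are matches of letters, not measured binding.

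The 5 windows below are shown because their genes carry most of the values that follow. They run 5′ to 3′ in the direction of the gene, with the fixed letters of each match in capitals.
Hspa5, chr3:38452766-38453015, plus strand: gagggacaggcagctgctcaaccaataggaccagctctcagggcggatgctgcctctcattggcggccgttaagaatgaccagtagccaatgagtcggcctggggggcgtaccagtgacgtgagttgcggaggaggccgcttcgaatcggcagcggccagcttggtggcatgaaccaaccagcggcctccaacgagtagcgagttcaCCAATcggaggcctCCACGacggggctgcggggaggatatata
Hsp90b1, chr7:23012294-23012543, minus strand: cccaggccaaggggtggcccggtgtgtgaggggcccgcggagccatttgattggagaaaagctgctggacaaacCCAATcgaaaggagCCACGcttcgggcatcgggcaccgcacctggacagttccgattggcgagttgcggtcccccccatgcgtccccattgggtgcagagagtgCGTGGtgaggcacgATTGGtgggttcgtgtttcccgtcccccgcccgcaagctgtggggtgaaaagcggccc
Hspb1, chr12:26432302-26432551, minus strand: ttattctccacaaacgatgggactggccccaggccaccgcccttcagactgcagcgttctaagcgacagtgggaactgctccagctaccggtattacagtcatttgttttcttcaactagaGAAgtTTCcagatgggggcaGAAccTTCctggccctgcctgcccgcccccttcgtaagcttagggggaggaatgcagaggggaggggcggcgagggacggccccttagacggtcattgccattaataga
Hsph1, chr12:10427118-10427367, plus strand: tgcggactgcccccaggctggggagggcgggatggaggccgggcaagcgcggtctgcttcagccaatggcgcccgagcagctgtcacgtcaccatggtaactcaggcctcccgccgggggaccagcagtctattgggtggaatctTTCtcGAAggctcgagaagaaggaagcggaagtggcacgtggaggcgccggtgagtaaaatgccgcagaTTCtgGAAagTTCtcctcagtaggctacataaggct
Hspe1, chr9:64084077-64084326, plus strand: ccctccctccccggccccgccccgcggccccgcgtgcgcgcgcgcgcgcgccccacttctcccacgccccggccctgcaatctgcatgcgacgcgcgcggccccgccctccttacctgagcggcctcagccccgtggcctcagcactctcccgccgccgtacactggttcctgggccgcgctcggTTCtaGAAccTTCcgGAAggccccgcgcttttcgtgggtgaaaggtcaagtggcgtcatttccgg
In the Hspa5 window the match lies 43 to 25 bases before the start. Hsp90b1 has 1 match at 176 to 158 bases and another, on the opposite strand, at 72 to 54 bases before the start. In the Hspe1 window the 3 heat shock matches overlap in 1 run between 65 and 48 bases before the start. Hspd1 lies on the other strand of chromosome 9 with 289 bases between its start and that of Hspe1, so the same run of matches lies 242 to 225 bases before the Hspd1 start.

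In high salt against control at 15 weeks, the member calls lay in the 2 chaperones of the endoplasmic reticulum, and both were lower. Hspa5 (also called BiP or Grp78), the Hsp70 of the endoplasmic reticulum, which holds the sensors of the unfolded protein response inactive, was lower by 1.08 on the log2 scale. Of Hsp90b1 (Grp94), the Hsp90 of the same compartment, 1 of 3 probe sets was lower and the other 2 were not called. No probe set of Hsf1, of a small heat shock protein, of a cytosolic or of a mitochondrial member passed the test. Over the 21 probe sets 0 were higher and 2 lower at an adjusted p under 0.05 in limma, where 3.28% of all tested probe sets were higher and 3.87% lower.

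The brightest Hspa5 probe set, M14050_s_at, had intensities of 1302, 873 and 1185.3 in the high salt arrays of 15 weeks, against 2047.9, 2407.6 and 2734.3 in the controls. Every high salt array was below every control array. The means were 1120 ± 222 in high salt and 2397 ± 343 in control (SD, n = 3 each), and the difference was -1.08 ± 0.21 (log2 ± SE, adjusted p = 0.00258, limma). The dimmer S63521_i_at showed 330.7, 335.8 and 440.7 in high salt against 794.8, 875.3 and 650 in control. These groups did not overlap either, with a difference of -0.99 ± 0.37 that was not called (adjusted p = 0.115). The third Hspa5 probe set, S63521_r_at, lay near the floor of the array, at 0 to 40.2 in high salt and 30.3 to 42.8 in control, with overlapping groups.

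Hsp90b1 was measured by 3 probe sets that differed in what they showed. S69316_s_at had 508.8, 415.5 and 616.6 in the high salt arrays, against 1006.2, 1050.7 and 934 in the controls. All 3 high salt arrays were below all 3 controls, by -0.92 ± 0.23 (log2 ± SE, adjusted p = 0.0196). S69315_at had 1354.5, 1566.9 and 1467.8 in high salt against 1466.3, 1129.8 and 1191.9 in control, and AA685903_at had 414.3, 279.6 and 597.8 against 454.8, 348.8 and 379.8. Both pairs of groups overlapped, with differences of 0.21 ± 0.17 and 0.07 ± 0.28. Over the 22 distinct arrays S69315_at and AA685903_at followed each other closely (Pearson r = 0.88), whereas S69316_s_at followed neither (r = -0.07 with S69315_at and 0.02 with AA685903_at). Which stretch of the transcript each probe set reads is not given in the sources used here.

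**Figure D1:**
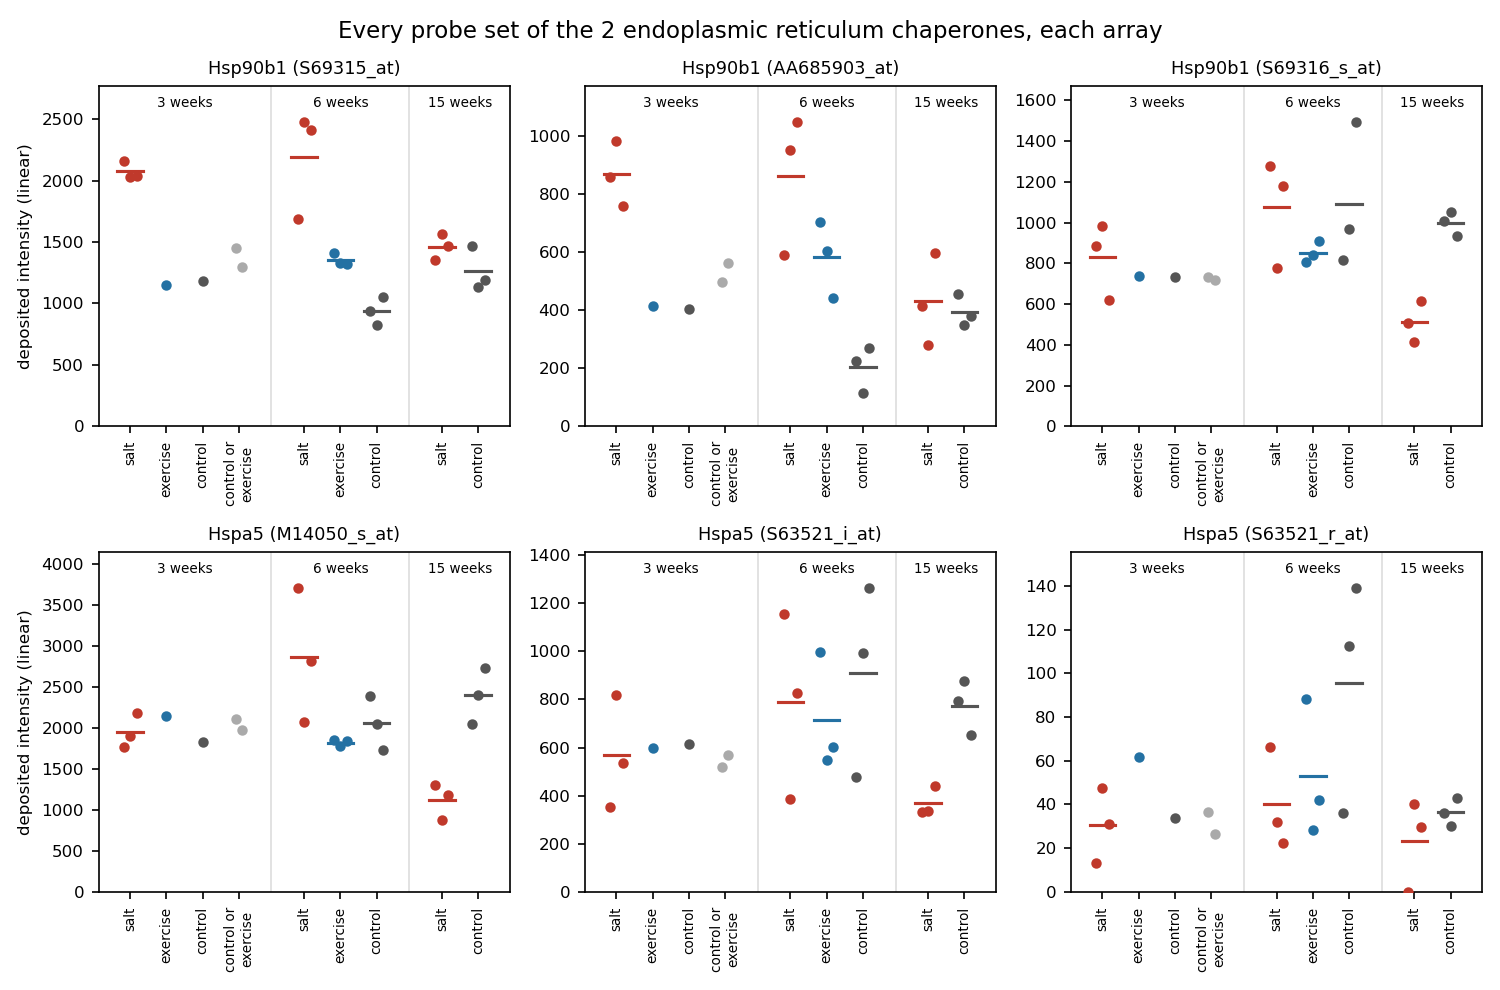
Deposited intensity (linear) of the 3 Hsp90b1 and 3 Hspa5 probe sets on each array, by week and group; dots are arrays, bars are means of groups of 3, and the light grey dots are the 2 arrays deposited under both the exercise and the control label. Hspa5 M14050_s_at and Hsp90b1 S69316_s_at are below all controls in the high salt arrays of 15 weeks, while Hsp90b1 S69315_at and AA685903_at are high in the high salt arrays of 3 and 6 weeks.

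The remaining members at 15 weeks stayed short of the threshold. The Hsf1 probe set rc_AI172097_at had 188, 191.6 and 179.7 in high salt against 284.1, 355.5 and 323.7 in control, a difference of -0.67 ± 0.23 without overlap (adjusted p = 0.090). The other 2 Hsf1 probe sets had differences of -0.41 ± 0.27 and -0.52 ± 0.36, with overlapping groups. Hspe1, the small co-chaperonin that caps Hspd1, had 3638.2, 3785.6 and 4185.4 in high salt against 5305.3, 4901.2 and 5691.9 in control on rc_AI170613_at. Those groups did not overlap, and the difference of -0.45 ± 0.19 was not called (adjusted p = 0.181). In all 7 of 21 member probe sets had groups without overlap, beside 20.8% of all tested probe sets, and the median difference of the 21 was -0.27 against -0.04 over all tested.

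Of the 15-week results, Hspa5 was as large once the GAPDH ratio entered the fit as a covariate (-1.12, adjusted p = 0.0031) and kept its call without any 1 array (adjusted p from 0.0033 to 0.0194). With control number 1 as the only control, the one whose GAPDH ratio was like that of the high salt arrays, it was -0.87 ± 0.30 and not called (adjusted p = 0.225). The Hsp90b1 probe set S69316_s_at lost its call without control number 2 (adjusted p = 0.0813), without high salt number 1 (0.0569) or without high salt number 2 (0.0749), while its difference stayed between -1.05 and -0.79 without any 1 array.

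Markers of other cell types moved at the same week. Of 7 fibroblast markers 4 were lower in high salt at 15 weeks, with a summed intensity of 11662 to 22400 in high salt and 26444 to 35706 in control. Of 4 leukocyte markers 2 were lower, with sums of 2294 to 2736 in high salt and 5040 to 6162 in control. Of 3 red blood cell markers 2 were higher, with sums of 31916 to 39002 in high salt and 18166 to 24499 in control. Of 4 atrial myocyte markers 1 was higher, with sums of 36399 to 47623 in high salt and 15843 to 18054 in control. The median difference of these 4 was 0.53. They were taken from a list of Myl7, Myl4, Sln, Nppa and Pam. A single bright marker can carry such a sum, here and in the comparisons below, so the sum does not show atrial tissue. The part of all these cell type markers in the lower Hspa5 and Hsp90b1 values was not tested. In bulk tissue fewer cells of a type and less RNA per cell cannot be told apart.

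High salt against control at 6 weeks gave the highest number of member calls, all of them higher. Hsp90b1, Hspb1 and Hsph1 were higher on 5 of the 21 probe sets and 0 were lower, beside 6.62% of all tested probe sets higher and 7.72% lower. Hspb1 (Hsp27) is a small heat shock protein that protects actin filaments, and Hsph1 (Hsp105) is a large Hsp70 relative that acts as a nucleotide exchange factor for Hsp70. The median difference of the 21 probe sets was 0.38, against -0.15 over all tested. The groups did not overlap in 8 of 21, beside 30.7% of all tested.

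Hsp90b1 S69315_at had 1689.9, 2473.7 and 2411.5 in the high salt arrays of 6 weeks, against 940.5, 822.6 and 1050.6 in the controls. The lowest high salt array was above the highest control, and the difference was 1.18 ± 0.17 (log2 ± SE, adjusted p = 0.000332, limma). AA685903_at had 590, 952.7 and 1047.6 in high salt against 225.8, 114.6 and 269.9 in control, again without overlap, with a difference of 1.91 ± 0.28 (adjusted p = 0.000392). S69316_s_at, the probe set that was lower at 15 weeks, had 1277.3, 775.4 and 1180.2 against 817.7, 966.8 and 1491.9, with groups that overlapped.

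Hspb1 M86389cds_s_at had 6279.4, 4585 and 5107.7 in high salt against 2761.6, 1848.9 and 1089.3 in control. The groups did not overlap, and the difference was 1.55 ± 0.24 (log2 ± SE, adjusted p = 0.000648). The brightest Hspb1 probe set, rc_AI176658_s_at, had 9887.6, 9159.8 and 9311.4 against 5672.5, 5193.8 and 5484.1, with narrow and separate groups and a difference of 0.79 ± 0.20 (adjusted p = 0.0108). The next, rc_AA998683_g_at, had 9198.6, 6239.5 and 9337.5 against 5957.8, 5270.3 and 4405.4, also without overlap but not called (0.65 ± 0.22, adjusted p = 0.0576). The fourth, rc_AA998683_at, ran the other way, at 554.3, 580.8 and 517.1 against 841.2, 1113.1 and 751.6 (-0.66 ± 0.32, adjusted p = 0.173).

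Hsph1 AA108277_at had 105.9, 131.4 and 138.2 in high salt against 6.9, 25.9 and 6.8 in control. It was one of the dim probe sets of the members, with all control values under the pseudocount of 40. The difference was 1.65 ± 0.31 (adjusted p = 0.00199, limma) on the log2(intensity + 40) scale. Over the alternatives that kept every array it lay between 0.78 and 2.33, and values this near the floor give no sure fold change. The brighter Hsph1 probe set rc_AI236601_at did not follow it, with 790, 442.5 and 559.7 against 905.2, 685.1 and 777.7 (-0.41 ± 0.22, adjusted p = 0.234). Of the probe sets with several symbols, rc_AI234604_s_at (Hspa8 and Haus8l2) had 11957.1, 11347.9 and 14533.4 in high salt against 9345.1, 6047.1 and 4081.7 in control. It was called with a difference of 1.03 ± 0.23 (adjusted p = 0.00656), and Hspa8 itself, the constitutive Hsp70 of the cytosol, cannot be given a value from it. The call was lost against the 3- and 15-week controls (0.44 ± 0.16, adjusted p = 0.273), in the fit that includes the GAPDH ratio (0.13 ± 0.30, adjusted p = 0.941) and when only the groups compared were fitted (adjusted p = 0.0637). The other such probe set, M11942_s_at, had 11786.6, 10180.2 and 14292.8 against 8589.8, 8998.7 and 7377.6, without overlap and not called (0.53 ± 0.22, adjusted p = 0.111).

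All 5 calls of the probe sets with 1 symbol at 6 weeks were kept without any 1 array, and they depended on which controls were used and on whether the GAPDH ratio entered the fit. Set against the 3- and 15-week controls instead, Hsp90b1 S69315_at was still called (0.78 ± 0.15, adjusted p = 0.0339), and AA685903_at had a difference of 1.01 ± 0.23 that was not (adjusted p = 0.0673). In the same setting Hspb1 M86389cds_s_at differed by 0.47 ± 0.16 (adjusted p = 0.224), Hspb1 rc_AI176658_s_at by 0.30 ± 0.18 (0.558) and Hsph1 AA108277_at by 0.78 ± 0.31 (0.31). In the fit that includes the GAPDH ratio none of the 5 was called. The 2 Hsp90b1 differences were then 1.11 ± 0.29 and 1.87 ± 0.49 (adjusted p = 0.166 for both), and Hspb1 M86389cds_s_at had a difference of 0.62 ± 0.32 (adjusted p = 0.581). The covariate fit called few probe sets of any kind: 13 of 6555, where 940 were called without it.

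Markers of cell types moved here as well. Of 10 ventricular myocyte markers 2 were higher in high salt, with sums of 242434 to 321646 in high salt and 196551 to 268367 in control. Of 5 smooth muscle markers 1 was higher and 3 lower, with sums of 12108 to 13763 in high salt and 9610 to 16244 in control. Of 4 atrial myocyte markers 2 were higher, with sums of 22246 to 24550 in high salt and 8931 to 14757 in control. Of 4 skeletal muscle markers 1 was lower, with sums of 608 to 726 in high salt and 890 to 1178 in control. Of 4 leukocyte markers 1 was higher and 1 lower, with sums of 6711 to 9073 in high salt and 5652 to 6632 in control. The sums of these last 3 lists did not overlap. Of 5 endothelial markers 1 was lower, with sums of 1066 to 1775 in high salt and 1652 to 1956 in control. Their part in the member values was not tested.

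**Figure D2:**
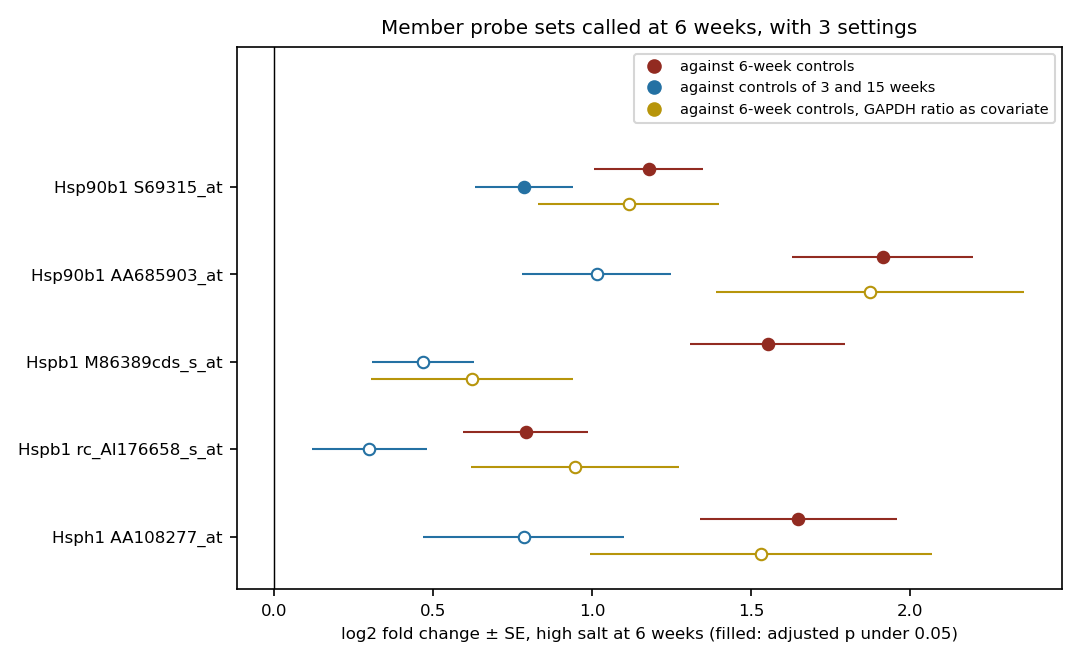
Log2 fold change with its standard error (horizontal axis) for the 5 member probe sets called in high salt against control at 6 weeks, under 3 settings; filled dots have an adjusted p under 0.05. All 15 dots are to the right of 0, Hsp90b1 S69315_at is the one filled against the 3- and 15-week controls, and no dot is filled in the setting with the GAPDH ratio.

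The effect of high salt differed between 15 and 6 weeks for 3 of the 21 probe sets. The difference of the effects, 15 weeks minus 6 weeks, was -1.52 ± 0.29 for Hspa5 M14050_s_at (adjusted p = 0.00941, limma). It was -1.85 ± 0.40 for Hsp90b1 AA685903_at (adjusted p = 0.0194) and -1.44 ± 0.35 for Hspb1 M86389cds_s_at (adjusted p = 0.035). Hsp90b1 S69315_at lay at the threshold with -0.96 ± 0.24 (adjusted p = 0.0502). Of all tested probe sets 0.763% had a positive and 0.748% a negative difference past the threshold, and the median of the 21 was -0.66 against 0.09 over all tested. None of the 3 kept its call in the fit that includes the GAPDH ratio. There the difference was -1.41 ± 0.35 for Hspa5 (adjusted p = 0.0726), -1.82 ± 0.50 for Hsp90b1 AA685903_at (0.111) and -0.74 ± 0.33 for Hspb1 (0.423). Nor was any of the 3 called when only the groups compared were fitted (0.0538, 0.0674 and 0.0964 for the same genes). Over all alternatives that kept every array the difference lay between -1.54 and -1.41 for Hspa5, between -1.97 and -1.61 for Hsp90b1 and between -1.46 and -0.74 for Hspb1. Hspa5 kept its call without any 1 array. Hsp90b1 AA685903_at lost it without control number 1 of 15 weeks, control number 2 of 6 weeks or high salt number 2 or 3 of 6 weeks (adjusted p from 0.0538 to 0.0644). Hspb1 M86389cds_s_at lost it without any of 9 of the 12 arrays (0.0528 to 0.0858). Cell type markers were called in this test as well: 1 of 7 fibroblast and 2 of 4 leukocyte markers were negative, and 2 of 3 red blood cell markers positive. Their part in the member values was not tested.

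The comparison of high salt arrays with each other takes no control array into its means, though its errors come from the spread pooled over all 20 arrays, controls included. Hspa5 M14050_s_at had 1302, 873 and 1185.3 at 15 weeks against 3705.3, 2071.3 and 2813.9 at 6 weeks. The groups did not overlap, and the difference of -1.30 ± 0.21 was called (adjusted p = 0.000779). Hsp90b1 S69316_s_at, at 508.8, 415.5 and 616.6 against 1277.3, 775.4 and 1180.2, differed by -0.999 ± 0.23 (adjusted p = 0.0188). These 2 of 21 were the member calls, all lower, beside 1.63% of all tested probe sets higher and 1.53% lower. Hsp90b1 S69315_at (-0.55 ± 0.17, adjusted p = 0.101) and AA685903_at (-0.96 ± 0.28, adjusted p = 0.0803) were not called. The call of S69316_s_at was lost when high salt number 1 or 2 of 15 weeks or number 1 or 3 of 6 weeks was left out (adjusted p from 0.0617 to 0.11), and also when only these groups were fitted (adjusted p = 0.0817). Markers of other cell types moved between the same arrays. Of 7 fibroblast markers 4 were lower at 15 weeks, with a median of -1.21, as were 2 of 4 leukocyte markers. All 3 red blood cell markers and 1 of 4 atrial myocyte markers were higher. Their part in the lower Hspa5 and Hsp90b1 values was not tested. Between 6 and 3 weeks 0 member probe sets were called in the high salt arrays, where 0.0763% of all tested were (5 called, and 301 at an unadjusted p under 0.05).

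High salt at 3 weeks was set against the 4 non-salt arrays. The same pair of Hsp90b1 probe sets was high here, with groups that did not overlap. S69315_at had 2162.4, 2032.4 and 2036.3 in the high salt arrays, against 1151.6 in the exercise array, 1186.3 in the control array, and 1449 and 1293.3 in the arrays with both labels. The difference was 0.70 ± 0.15 and missed the threshold (adjusted p = 0.0631, limma). AA685903_at had 860.9, 984.3 and 760.1 in high salt, against 415.7 in exercise, 405 in control, and 496.3 and 562.6 in the arrays with both labels (0.84 ± 0.25, adjusted p = 0.265). All 7 arrays of this comparison are among the 16 with GAPDH ratios of 0.989 to 1.18. Hspa5 M14050_s_at was level here, at 1773.3, 1899.4 and 2179.3 in high salt, against 2151.5 in exercise, 1832.7 in control, and 2104.9 and 1973.2 in the arrays with both labels (-0.05 ± 0.18). The probe set rc_AA799438_at (Asb2 and Hspb1) had 1270, 1598.9 and 2218.2 in high salt, below all 4 non-salt arrays, which lay between 2508.1 and 3553.7 (-0.83 ± 0.26, adjusted p = 0.316). No member was called, where 0.153% of all tested were (10 called, and 526 at an unadjusted p under 0.05), and groups without overlap were seen in 3 of 21 member probe sets beside 14.8% of all tested. With only these groups in the fit both Hsp90b1 probe sets were called (adjusted p = 0.0182 and 0.0247). Calls over all tested probe sets also rose in that setting, to the count given with the other settings at the end. Over the alternatives that kept every array, rc_AA799438_at reached an adjusted p of 0.0442, lower in high salt. Among 4 atrial myocyte markers 1 was higher, with sums of 22707 to 24113 in high salt and 12235 to 18374 in non-salt arrays. The 3 red blood cell markers had 0 calls, with sums of 20520 to 23304 in high salt and 13589 to 15758 in non-salt arrays. Sums of the other cell type lists overlapped. The part of these markers in the member values was not tested.

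Exercise against control at 6 weeks gave 2 member calls, both of them higher and both for probe sets also called in high salt against the same control arrays. Hsp90b1 AA685903_at had 704.3, 604.6 and 442 in the exercise arrays, against 225.8, 114.6 and 269.9 in the controls. All exercise arrays were above all controls, by 1.39 ± 0.28 (adjusted p = 0.0051, limma). Hsph1 AA108277_at had 111.9, 80.1 and 59.2 against 6.9, 25.9 and 6.8, a difference of 1.22 ± 0.31 without overlap (adjusted p = 0.0202). Of all tested probe sets 4.45% were higher and 3.36% lower, and the median of the 21 was -0.12, as it was over all tested. Groups without overlap were seen in 6 of 21, beside 28.5% of all tested. Hsp90b1 S69315_at, at 1410.8, 1326.2 and 1320.2 against 940.5, 822.6 and 1050.6, did not overlap and was not called (0.52 ± 0.17, adjusted p = 0.0676).

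Against the 3- and 15-week controls neither exercise call held. AA685903_at then differed by 0.50 ± 0.23 (adjusted p = 0.537) and Hsph1 AA108277_at by 0.35 ± 0.31 (adjusted p = 0.842). In the fit that includes the GAPDH ratio, adjusted p was 0.58 for AA685903_at and 0.722 for AA108277_at. The Hsph1 call was also lost without control number 3 (0.0908), exercise number 1 (0.0796) or exercise number 2 (0.0616). Of 5 smooth muscle markers 1 was higher and 3 lower in exercise, with a median of -0.95. Of 10 ventricular myocyte markers 2 were higher, as were 1 of 4 atrial myocyte and 1 of 4 leukocyte markers. Of 4 skeletal muscle markers 1 was lower, as was 1 of 5 endothelial markers. Their part in the member values was not tested.

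High salt against exercise at 6 weeks takes no control array into its means, while its errors use the same pooled spread. Probe sets of Hspb1 had the largest differences among the members here. On rc_AI176658_s_at the high salt arrays had 9887.6, 9159.8 and 9311.4, against 4412.5, 7061.9 and 3507.9 in the exercise arrays. The groups were apart and the difference was 0.98 ± 0.20, which did not pass the test (adjusted p = 0.104, limma). On rc_AA998683_g_at the values were 9198.6, 6239.5 and 9337.5 against 3645.3, 4878.8 and 3384.4 (1.04 ± 0.22, adjusted p = 0.128). On M86389cds_s_at they were 6279.4, 4585 and 5107.7 against 2354.6, 2846.2 and 2894.1 (0.96 ± 0.24, adjusted p = 0.203). So 3 of the 4 Hspb1 probe sets were higher in every high salt array than in any exercise array, and none was called.

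Hsp90b1 S69315_at, Hspa5 M14050_s_at and Cryab M55534mRNA_s_at were also without overlap between high salt and exercise. Cryab is alpha B-crystallin, the small heat shock protein that binds desmin and titin in heart muscle. Its 3 high salt arrays had 20136, 21459.4 and 24953.1, against 16629.6, 16735.4 and 15774 in the exercise arrays (0.43 ± 0.16, adjusted p = 0.565). The Hsp90b1 difference was 0.66 ± 0.17 (adjusted p = 0.206) and that of Hspa5 0.60 ± 0.21 (adjusted p = 0.528). In all 6 of 21 member probe sets did not overlap, beside 13.3% of all tested, and 0 were called, beside 0.0153% of all tested (1 called, and 464 at an unadjusted p under 0.05). With exercise number 2 left out, Hspb1 rc_AI176658_s_at differed by 1.26 ± 0.17 and was called (adjusted p = 0.00609).

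**Figure D3:**
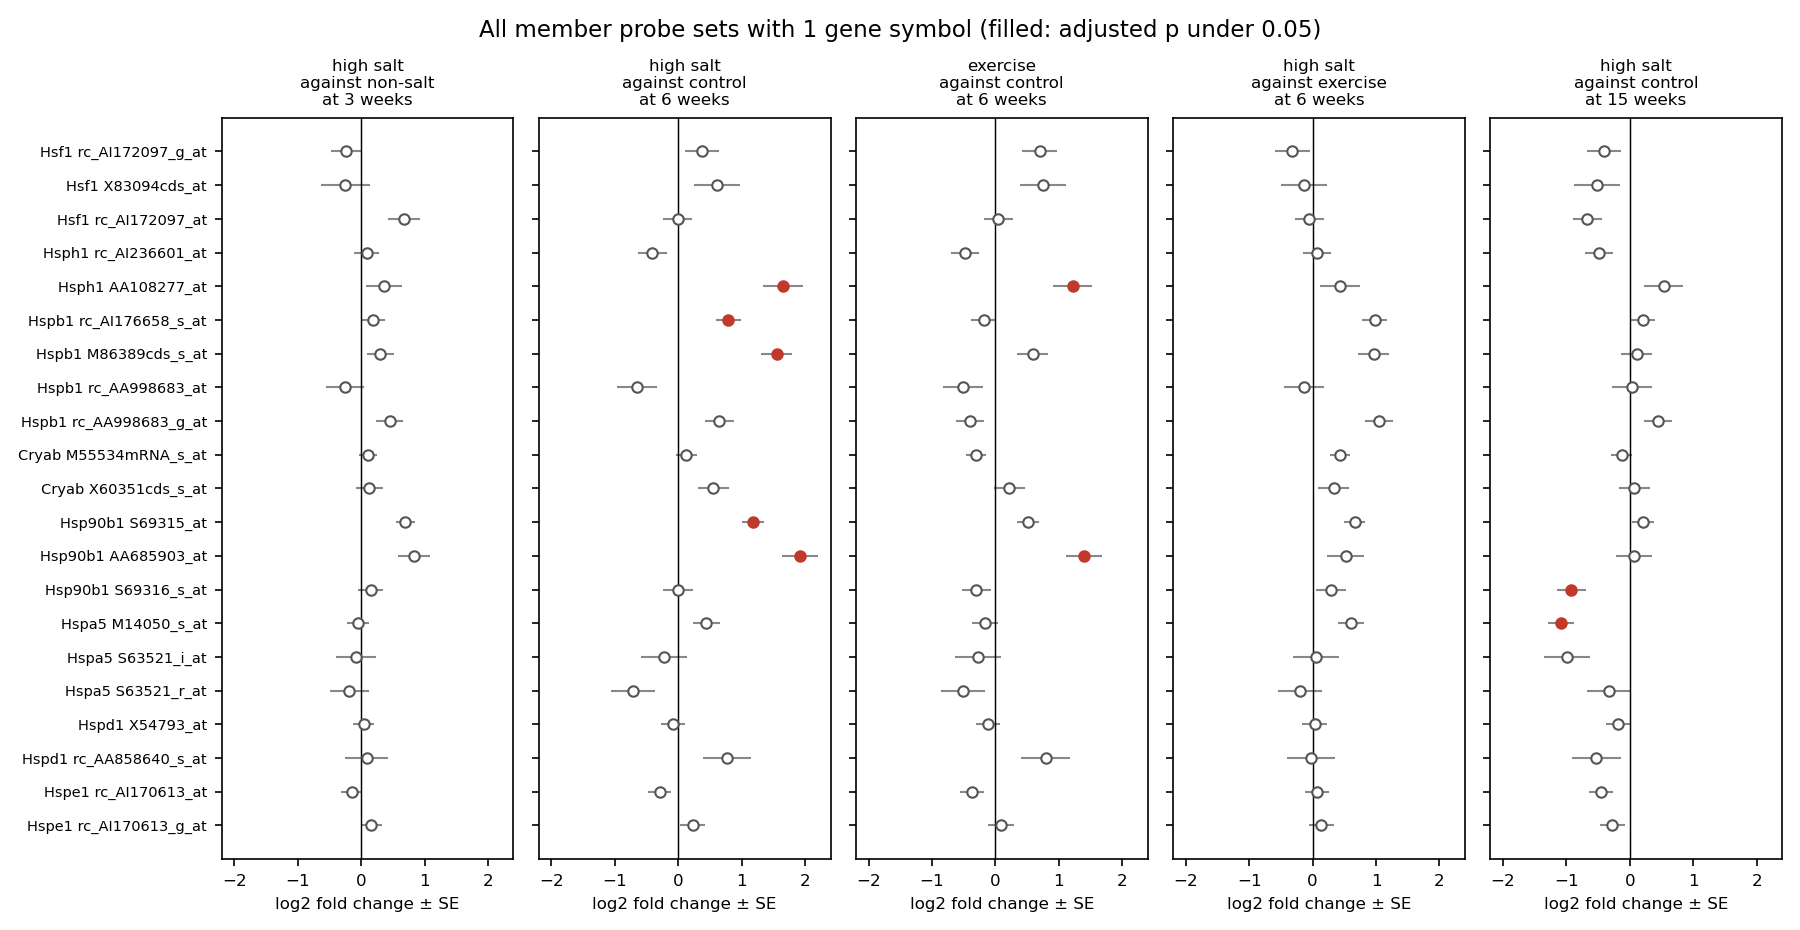
Log2 fold change with its standard error for the 21 member probe sets with 1 symbol (down the page) in 5 comparisons (panels); filled dots have an adjusted p under 0.05. The 5 filled dots of high salt at 6 weeks and the 2 of exercise at 6 weeks are to the right of 0, and the 2 of high salt at 15 weeks are to the left.

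Hsf1 itself was not called in any comparison. Its brightest probe set, rc_AI172097_g_at, ranged from 417.6 in a 6-week control array to 1805.6 in a 15-week control array. The group means were 977 ± 113 in high salt at 3 weeks, 993 ± 178 in high salt, 1244 ± 161 in exercise and 802 ± 333 in control at 6 weeks, and 1121 ± 228 in high salt and 1515 ± 387 in control at 15 weeks (SD, n = 3 each). At 3 weeks the exercise array had 1146.2 and the control array 1169.1. From high to low the groups of 3 stood as control at 15 weeks, exercise at 6 weeks, high salt at 15, 6 and 3 weeks, and control at 6 weeks, and the arrays of neighbours in that order overlapped each time. The 3 Hsf1 probe sets bore little relation to each other over the 22 arrays, with r between -0.18 and 0.13. A level of the Hsf1 transcript says nothing of the protein's activity, which is known to be set by its release from chaperones and by phosphorylation.

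Cryab was read by probe sets of unequal spread. On its brightest, M55534mRNA_s_at, the lowest array, the 3-week exercise array, had 15671.8 and the highest, a high salt array of 6 weeks, 24953.1, so the range was 1.59-fold over the 20 arrays of 1 label. X60351cds_s_at ranged 2.89-fold, from 9769.5 to 28197.7. Hspb1 rc_AI176658_s_at ranged 2.82-fold, from 3507.9 in exercise to 9887.6 in high salt, both at 6 weeks. In the order of group means, Hspb1 stood at 9453 ± 384 in high salt at 6 weeks, 9071 ± 929 in high salt at 15 weeks, 7916 ± 632 in high salt at 3 weeks, 7880 ± 1085 in control at 15 weeks, 5450 ± 241 in control at 6 weeks and 4994 ± 1847 in exercise at 6 weeks (SD, n = 3 each). High salt at 3 weeks and control at 15 weeks were level, and the difference between high salt and its controls was called neither at 3 nor at 15 weeks. Neighbours in the order overlapped, except that all controls of 15 weeks were above all controls of 6 weeks. At 3 weeks the exercise array had 6480.7, the control array 7219.9 and the arrays with both labels 8264 and 5873.5.

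The mitochondrial pair, Hspd1 (Hsp60, the chaperonin barrel) and Hspe1 (Hsp10, its lid), gave 0 calls in any comparison. Hspd1 X54793_at had 5098.6, 5249 and 5351.2 in high salt at 15 weeks, against 5535.6, 5580.8 and 6856.4 in control, groups that did not overlap (-0.19 ± 0.19, adjusted p = 0.68). Over all 20 arrays it ranged 1.72-fold, and Hspd1 rc_AA858640_s_at ranged 5.34-fold, from 630.5 to 3368.6. The genes share a promoter region, and their probe sets were set against each other over the 22 arrays. Hspd1 rc_AA858640_s_at had r = 0.83 with Hspe1 rc_AI170613_g_at and 0.33 with rc_AI170613_at. Hspd1 X54793_at had r = 0.62 and 0.59 with the same probe sets. Within a gene r was 0.60 for Hspd1 and 0.47 for Hspe1. These arrays share their RNA preparations and scaling, so the correlations describe the arrays and not control of the genes.

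**Figure D4:**
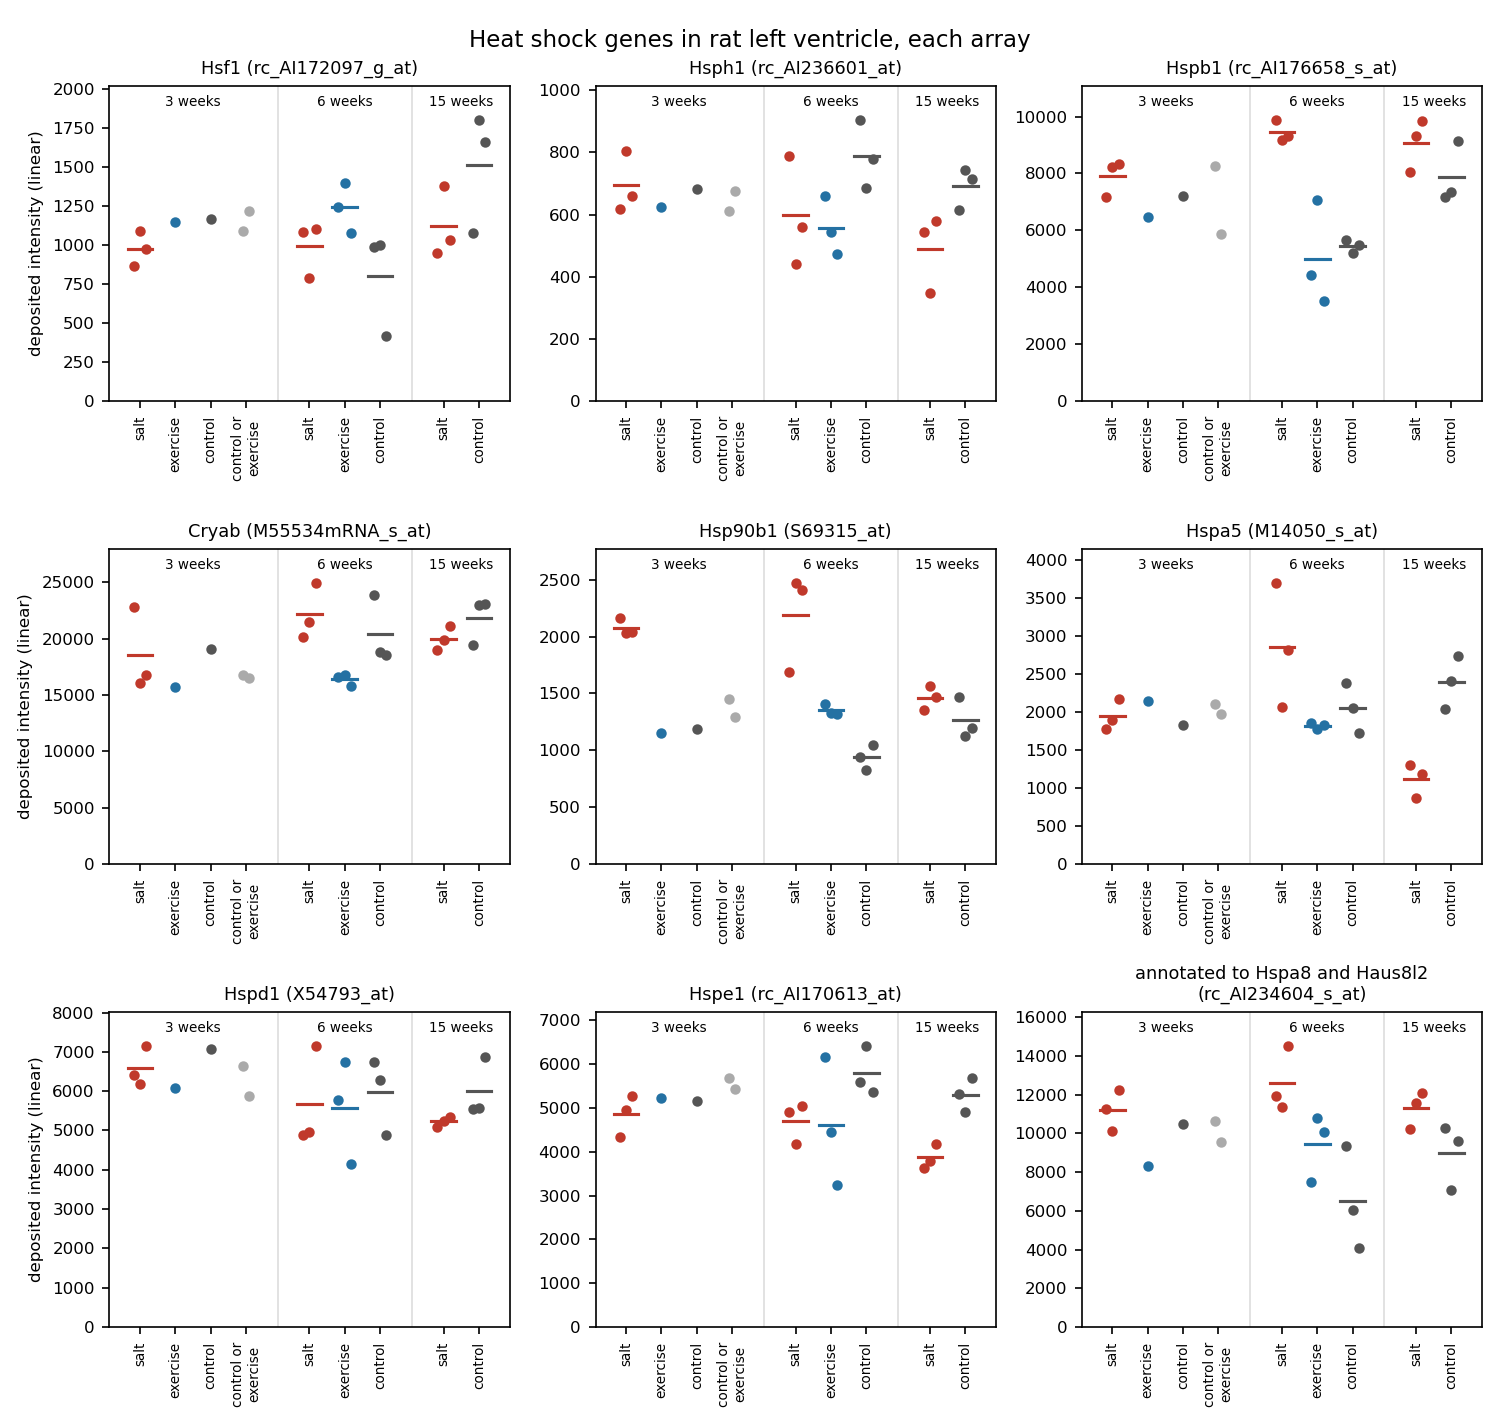
Deposited intensity (linear) on each array for the brightest probe set of 8 members and for the probe set annotated to Hspa8 and Haus8l2, by week and group; dots are arrays, bars are means of groups of 3, and light grey dots are the 2 arrays with both labels. At 6 weeks Hspb1 is highest in high salt (9159.8 to 9887.6 beside 3507.9 to 7061.9 in exercise and 5193.8 to 5672.5 in control). Its high salt arrays of 15 weeks (8044.2 to 9852.4) overlap those of 6 weeks. Hspa5 is low in high salt at 15 weeks (873 to 1302).

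Other genes of the same folding pathways were read from lists, each gene by its brightest tested probe set. Their counts stand beside the shares of all tested probe sets given above for the same comparisons: 3.28% higher and 3.87% lower in high salt at 15 weeks, 6.62% and 7.72% in high salt at 6 weeks, and 4.45% and 3.36% in exercise. For high salt at 15 against 6 weeks they were 1.63% and 1.53%. Against the 6-week controls 7 list genes were called in high salt and 4 in exercise. None of these 11 calls held with the GAPDH ratio in the fit or against the 3- and 15-week controls (lowest adjusted p 0.0938), whereas all 7 of high salt at 15 weeks held with the ratio in the fit. In the list of endoplasmic reticulum folding and the unfolded protein response 16 of 31 genes were measured. At 15 weeks 0 of these were higher and 4 lower in high salt, and the median difference was -0.50 against -0.04 over all tested probe sets. Hyou1, the nucleotide exchange factor of Hspa5, averaged 523 in high salt and 1646 in control (-1.61 ± 0.23, adjusted p = 0.000229). Serpinh1 (Hsp47), the chaperone of procollagen, averaged 658 in high salt and 2259 in control (-1.82 ± 0.28, adjusted p = 0.000499). The other 2 were the disulfide isomerase Pdia3 (-0.99 ± 0.26, adjusted p = 0.0211) and the prolyl isomerase Fkbp2 (-0.59 ± 0.15, adjusted p = 0.0187). The procollagen genes Col1a1, Col1a2 and Col3a1, which are clients of Serpinh1 and markers of fibroblasts, were among the 4 fibroblast markers that were lower at the same week (-1.44, -1.59 and -3.04).

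At 6 weeks the same list had 1 gene higher and 1 lower in high salt than in control, with a median of 0.11 against -0.15 over all tested, counts near the share of all tested probe sets. Vcp, the ATPase that draws proteins out of the membrane for degradation, was higher (0.58 ± 0.17, adjusted p = 0.0282), and by 0.09 ± 0.25 with the GAPDH ratio in the fit. Ddit3 (Chop), a transcription factor induced by the unfolded protein response, was lower (-1.07 ± 0.23, adjusted p = 0.00501). Between the high salt arrays of 15 and 6 weeks 0 genes of the list were higher and 4 lower, with a median of -0.47. They were Serpinh1 (-2.03 ± 0.28), Hyou1 (-1.14 ± 0.23), Pdia3 (-0.98 ± 0.26) and Pdia4 (-0.87 ± 0.23, adjusted p = 0.0439). Exercise against control changed 0 of the 16.

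**Figure D5:**
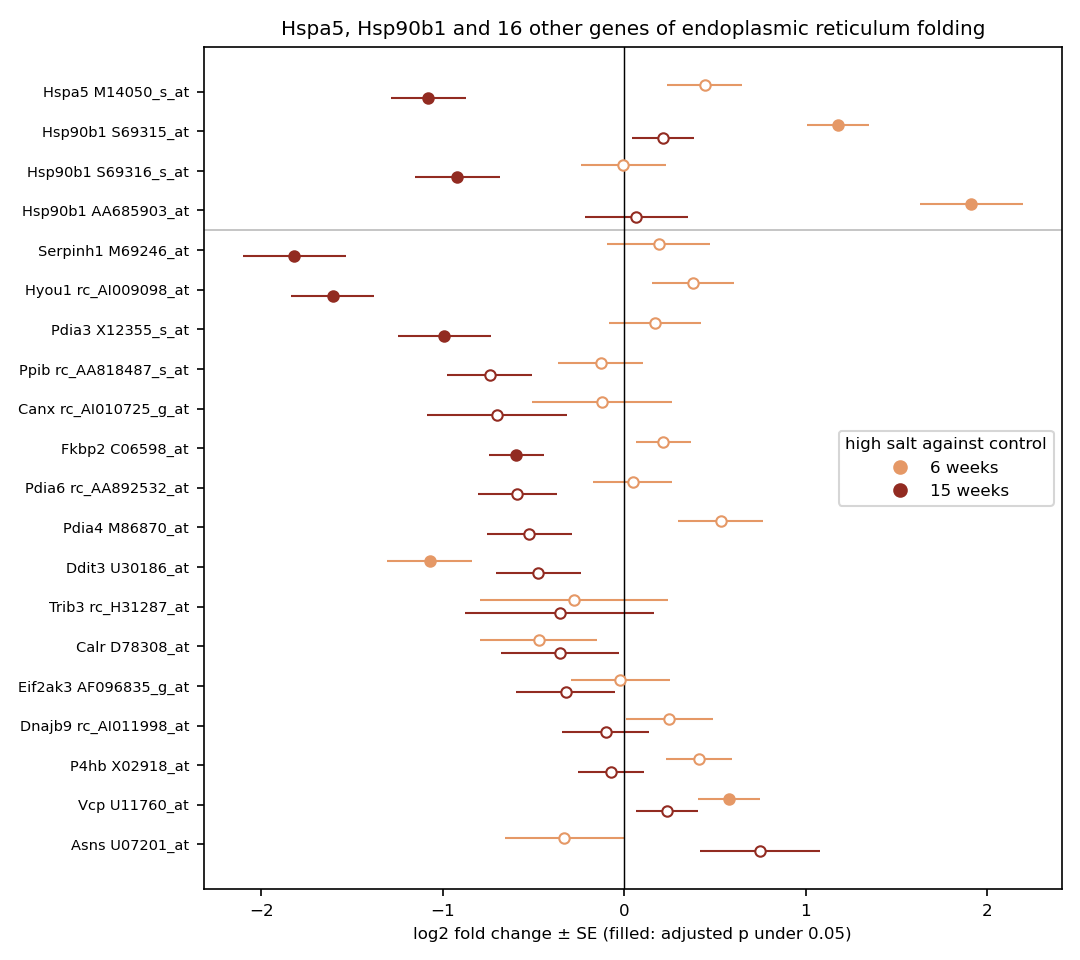
Log2 fold change of high salt against control with its standard error, at 6 and 15 weeks, for Hspa5, Hsp90b1 (above the line) and the 16 measured genes of the endoplasmic reticulum list (below it, sorted by the 15-week value); filled dots have an adjusted p under 0.05. At 15 weeks the filled dots are all left of 0; at 6 weeks Hsp90b1 S69315_at, Hsp90b1 AA685903_at and Vcp are filled to the right and Ddit3 to the left.

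In the list of cytosolic chaperones and their helpers 16 of 42 genes were measured. High salt at 15 weeks had 0 higher and 2 lower: Fkbp4, an Hsp90 helper for steroid receptors (-1.40 ± 0.22, adjusted p = 0.00048), and Cdc37, the Hsp90 helper for kinases (-0.67 ± 0.16, adjusted p = 0.012). High salt at 6 weeks had 2 higher and 2 lower than control. The counts of this list, at 15 as at 6 weeks, are too small to set apart from the share of all tested probe sets. The same goes for the counts of the small heat shock and mitochondrial lists below. St13, which steadies the Hsp70 cycle, was higher (1.18 ± 0.27), as was Stip1, which links Hsp70 to Hsp90 (0.86 ± 0.23). Dnajc5 (-0.97 ± 0.20) and Cdc37 (-0.51 ± 0.16) were lower. Exercise at 6 weeks, against the same controls, had St13 higher (1.01 ± 0.27) and Dnajc5 lower (-0.69 ± 0.20). Between the high salt arrays of 15 and 6 weeks 0 genes of this list were higher and 1 lower, Fkbp4 (-1.48).

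Of the small heat shock proteins outside the members 3 of 6 were measured. Hspb6 (Hsp20), which is abundant in heart muscle, averaged 19344 in high salt at 6 weeks and 7732 in the 6-week controls (1.42 ± 0.24, adjusted p = 0.000832). In exercise it averaged 13952 (0.95 ± 0.24, adjusted p = 0.0167). Against the 3- and 15-week controls the differences were 0.38 ± 0.13 in high salt and -0.08 ± 0.13 in exercise. With the GAPDH ratio in the fit the Hspb6 differences were 0.35 ± 0.26 in high salt and -0.18 ± 0.27 in exercise. At 15 weeks Hspb6 averaged 18869 in high salt and 14501 in control, a difference that was not called (0.38 ± 0.24, adjusted p = 0.414). Of 7 measured genes in the mitochondrial list, Hspa9, the mitochondrial Hsp70, was higher in exercise than in control at 6 weeks (1.43 ± 0.36, adjusted p = 0.0173). With the GAPDH ratio in the fit the Hspa9 difference was -0.08 ± 0.48. Against the 3- and 15-week controls it was 1.02 ± 0.24 and not called (adjusted p = 0.165, limma). Phb2, a prohibitin of the inner membrane, was lower in high salt than in control at 15 weeks (-0.80 ± 0.16, adjusted p = 0.00393). Between the high salt arrays of 15 and 6 weeks 0 genes of this list were higher and 1 lower, also Phb2 (-0.64).

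The genes whose pattern was most like each member were read as Pearson r of log2 intensities over the 22 distinct arrays. Hspa5 ran closest to Hyou1 (r = 0.81) and Pdia3 (0.79), both of the endoplasmic reticulum list. Hsp90b1 S69315_at ran closest to Gja1, the gap junction protein connexin 43 (0.92), and to Tmed2, a cargo receptor between endoplasmic reticulum and Golgi (0.90). Cryab ran closest to Myl2, the ventricular myosin light chain (0.85), and COX1 (0.84). Hspb1 rc_AI176658_s_at had no neighbour above 0.75, the value for Junb, among probe sets with 1 symbol. Another Hspb1 probe set, M86389cds_s_at, had r = 0.89 with rc_AI234604_s_at (Hspa8 and Haus8l2). Hspd1 ran closest to Aurkaip1 (0.86) and Ndufc1 (0.83), Hspe1 to Ppp2r3a (0.82) and Ppox (0.76), Hsf1 to Pon1 (0.81) and Cox8a (0.80), and Hsph1 rc_AI236601_at to Idi1 (0.82) and Fam219b (0.81). Arrays of a group share treatment, week and RNA quality, so these values describe likeness on these arrays alone.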

How the data were processed

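Total RNA of left ventricles was hybridised to an Affymetrix rat array, per the labels. The authors deposited 1 linear intensity per probe set and array in a table of the whole series; the sources used here do not give how they summarised probes, corrected background and scaled. Trimmed by 2%, column means were 500.767 to 501.021, so no further scaling was applied. Detection calls were not used, and precision is limited by how many arrays there are.

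Exercise and control at 3 weeks held the same 8799 values in their columns numbered 2 and 3; other pairs shared at most 31 values. These 2 arrays were left out, except in the comparison of high salt with non-salt at 3 weeks. The 59 control probe sets were removed, intensities were transformed as log2(value + 40), and the dimmest 25% of probe sets by mean were dropped, leaving 6555. This scale shrinks the intensity ratios of dim probe sets, whose values near the floor give no sure fold change. One mean per group was fitted to 20 arrays (12 residual degrees of freedom; 22 arrays and 15 for the 3-week comparison) with limma 3.58.1 in R 4.3.3 (lmFit, eBayes with an intensity trend), with Benjamini-Hochberg adjustment over all 6555 and a threshold of 0.05. Groups of 1 array borrow the spread of the rest. The fit was tested on simulated data. The annotation gave 1 symbol for 7018 probe sets, several for 308 and none for 1473.

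Members, lists and tests were chosen with earlier results of these data known. Named genes were all member probe sets with 1 symbol, the called genes of each list (up to 6 per comparison) and the 2 nearest genes of each member's brightest probe set. Probe set levels are not compared with each other. Promoters and start sites are RefSeq's, on GRCr8; the array names no build. Alternatives were the pseudocount (16, 100), no filter, quantile normalization, the GAPDH ratio as covariate, other controls, the groups compared alone, all 24 columns, a replicate block and leaving out each array.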

Additional observations from a re-analysis of the deposited data

Results flagged for a closer look

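By the test of that difference in limma, the effect of high salt differed between 15 and 6 weeks for 3 member probe sets. It also differed for 3 genes of the lists, 1 of 16 measured cytosolic and 2 of 16 measured endoplasmic reticulum genes. In the small heat shock list 0 of 3 measured genes were called, and in the mitochondrial list 0 of 7. Of all tested probe sets 0.763% had a positive and 0.748% a negative difference past the threshold. The value, 15 weeks minus 6 weeks on the log2 scale, was -1.85 for Hsp90b1 AA685903_at, where high salt was above control at 6 weeks and the groups overlapped at 15 weeks. It was -1.52 for Hspa5 M14050_s_at, which was below control at 15 weeks. It was -1.44 for Hspb1 M86389cds_s_at, which was above control at 6 weeks. Among the lists it was -1.97 for the Hsp90 helper Fkbp4, -1.98 for Hyou1 and -2.01 for the procollagen chaperone Serpinh1. All 6 values rest on the 6-week controls with GAPDH 3' to 5' ratios of 1.58 to 3.99. With the GAPDH ratio in the fit, Fkbp4 (-1.62 ± 0.35, adjusted p = 0.0452) and Serpinh1 (-2.31 ± 0.48, adjusted p = 0.0355) kept their call. Hyou1 (-1.66 ± 0.38, adjusted p = 0.053) and the 3 member probe sets did not. In each of the 24 member probe sets the 4 non-salt arrays of 3 weeks were checked for an array that stood apart, and 0 did.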

How the results depend on the processing

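No called member value changed sign under any alternative run: of 223 such values 176 kept their call and 47 lost it, while 28 of 2339 values without a call gained one. Calls are counted over the 21 member probe sets with 1 symbol. With the GAPDH ratio as covariate, calls in high salt against control at 6 weeks went to 0 (5 in the design used), in exercise against control to 0 (2), in the difference between 15 and 6 weeks to 0 (3), and in high salt against exercise to 1 (0). Against the controls of 3 and 15 weeks, high salt at 6 weeks kept 1 call and exercise 0. With only the groups compared in the fit, high salt at 3 weeks had 2 calls (0), the difference between weeks 0 (3) and high salt at 15 against 6 weeks 1 (2). All 24 columns as deposited gave 4 calls in the last comparison. Control number 1 of 15 weeks alone, an alternative chosen after seeing the data, left 0 calls (2).

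Leaving out each array gave 1 to 2 calls for high salt against control at 15 weeks, 5 to 8 at 6 weeks, 1 to 3 for exercise, 0 to 1 for high salt against exercise, 0 for high salt against non-salt at 3 weeks, 1 to 4 for the difference between weeks, 1 to 3 for high salt at 15 against 6 weeks and 0 for 6 against 3 weeks. Over all tested probe sets the counts of called probe sets moved further. High salt against control at 15 weeks had 469, and 267 with only the groups compared, 56 with control number 1 alone and 214 to 542 without each array. At 6 weeks it had 940, and 13 with the covariate, 387 with only the groups compared, 15 against other controls and 455 to 1227 without each array. Exercise had 512, against 0, 255, 6 and 211 to 851 in the same settings, and 772 with all 24 columns. The difference between weeks had 99, and 34 to 184 under the same alternatives and 54 to 294 without each array. High salt against exercise had 1, and 0 to 7 over all alternatives. High salt at 3 weeks had 10, and 100 with only the groups compared, 6 without the filter, 1 against 2 non-salt arrays and 0 to 8 without each array. High salt at 15 against 6 weeks had 207, and 106 with only the groups compared. High salt at 6 against 3 weeks had 5, and 3 with only the groups compared and 2 to 10 without each array.

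Replicate numbers occur in every group. Same-numbered arrays seldom deviated together (r between -0.23 and 0.24, above 0.1 in 3 of 18 pairs), and 4 pairs correlated best with their own number. This check cannot show whether same-numbered arrays shared a step of handling. A replicate block left 2 calls at 15 weeks, 5 in high salt and 2 in exercise at 6 weeks, 2 in the difference between weeks, where Hspb1 M86389cds_s_at had an adjusted p of 0.0545, and 2 in high salt at 15 against 6 weeks. The cause of these changes was not tested. Dim probe sets such as Hsph1 AA108277_at and Hspa5 S63521_r_at lie near the pseudocount, so their intensity ratios are shrunk most and give no sure fold change.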
